A study of Homo sapiens with 2 samples.

Results

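A set of 10 probes for hepatocyte microRNAs (miRNAs) was examined in exosomes, the small vesicles that cells release, from HuH-7 cells. The 10 were chosen by name out of 2565 miRNA probes on the array: both arms of miR-122, miR-192, miR-194 and miR-885, the 5p arm of miR-215 and the 3p arm of miR-148a. HuH-7 is an established line from a human hepatocellular carcinoma. The groups were exosomes of a HuH-7-M culture and exosomes of a HuH-7-P culture, with 1 array each, and the labels do not spell out the letters M and P. The series title places the work in intrahepatic metastasis of liver cancer. Both cultures were grown in medium with fetal bovine serum and changed to advanced DMEM before the vesicles were collected by filtration and ultracentrifugation, and no genetic change or drug is named for either. The labels name vesicles as the source, while their RNA extraction note speaks of cells. With 1 array per group, no test between the cultures was possible, differences carry only the error seen within an array, and any effect of the day, the vesicle yield or the labelling cannot be told apart from the culture.

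A miRNA is cut from a hairpin precursor that holds a mature sequence on each side, named 5p and 3p. The guide arm is loaded into Argonaute and directs silencing of messenger RNAs through its seed, bases 2 to 8, while the passenger arm is mostly degraded. miR-122-5p is the dominant miRNA of healthy hepatocytes and acts on cholesterol and lipid metabolism. miR-192-5p, miR-194-5p and miR-215-5p are made from paired hairpins in liver, gut and kidney, where hepatocyte nuclear factors drive them. miR-885-5p is a liver-enriched miRNA measured in serum after liver injury, and miR-148a-3p is an abundant liver miRNA that acts on DNMT1 and on lipid uptake. The guide arms are therefore the 5p arms of miR-122, miR-192, miR-194, miR-215 and miR-885 and the 3p arm of miR-148a, and the other 4 probes read passenger arms.

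The mature sequences of all 10 were found in RefSeq (GRCh38.p14) and are shown because the arms of a hairpin, and the related miR-192-5p and miR-215-5p, are compared below. Capitals mark the seed, and the prefix hsa, for human, is left out where a name is repeated.
hsa-miR-122-5p: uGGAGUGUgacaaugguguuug
hsa-miR-122-3p: aACGCCAUuaucacacuaaaua
hsa-miR-192-5p: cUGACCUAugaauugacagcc
hsa-miR-192-3p: cUGCCAAUuccauaggucacag
hsa-miR-194-5p: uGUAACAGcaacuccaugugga
hsa-miR-194-3p: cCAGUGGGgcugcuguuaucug
hsa-miR-215-5p: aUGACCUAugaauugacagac
hsa-miR-885-5p: uCCAUUACacuacccugccucu
hsa-miR-885-3p: aGGCAGCGggguguaguggaua
hsa-miR-148a-3p: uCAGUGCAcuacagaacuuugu

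miR-192-5p and miR-215-5p share their seed and 19 of 21 bases. Counted from 1 at the 5′ end, with the base of miR-192-5p first, they differ by C1A and C20A, so the signals of their probes cannot be taken as separate. The other members each have a seed that no second member shares. miR-194-5p is encoded in 2 places, at chr1:220118206-220118227 and at chr11:64891404-64891425, both on the minus strand, and its single probe cannot tell these genes apart. MIR194-1 lies 194 bases from MIR215 (chr1:220117853-220117962), inside the span of IARS2, and MIR194-2 lies 108 bases from MIR192 (chr11:64891137-64891246), inside the noncoding gene MIR194-2HG. MIR122 lies within the noncoding gene MIR122HG on chromosome 18, MIR885 within the span of ATP2B2 on chromosome 3, and MIR148A at chr7:25949919-25949986. The annotation used here gives gene spans, not exons and introns, so no finer position is stated.

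Values below are spot median intensities in the Cy5 channel, in scanner units, with no background removed unless stated. A probe was counted as above background where it was brighter than a BLANK limit, the mean of the BLANK spots with 2 of their SDs added, which came to 61.2 for the HuH-7-M array and 62.3 for the HuH-7-P array. Spots named No Probe were brighter than BLANK, at 81.1 ± 5.73 for HuH-7-M and 79.8 ± 7.20 for HuH-7-P (SD, all 85 spots per array). All 85 also lay above the BLANK limit on each array. They gave a stricter limit, their mean plus 2 SD, of 89.9 for HuH-7-M and 86.9 for HuH-7-P. For this limit, as for that of BLANK, 5% of the spots were left out at each end. With all spots kept both No Probe limits would be higher. On HuH-7-P, miR-885-5p (89.6) and miR-192-5p (87.5) would then not pass. Probes named Negative Control 1 to 3 also lay above the BLANK limit, with means from 71.4 to 78.9 on the HuH-7-M array and from 67.4 to 72.8 on the HuH-7-P array. A log2 difference is the log2 ratio of HuH-7-M to HuH-7-P after the BLANK mean was subtracted and each array was divided by the median of its probes above the limit. Its range, given in brackets, is what results when both spots are moved in opposite directions by 2 SD of the BLANK spots. It covers spot noise near background only.

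Of the 10 probes, 8 were above the BLANK limit in HuH-7-M exosomes and 7 in HuH-7-P exosomes, and the same 7 were above it on both arrays, against 1593 of all 2565 miRNA probes. Of the members 3, miR-122-5p and both arms of miR-885, also passed the No Probe limit on each array, against 790 of all 2565 miRNA probes. All 4 liver markers set for the label check (miR-122-5p, miR-192-5p, miR-194-5p and miR-885-5p) passed the BLANK limit on both arrays, but miR-194-5p lay below the 3 Negative Control means in HuH-7-M exosomes and just above them in HuH-7-P exosomes. Of 21 markers of other cell types, 11 passed on both arrays and 2, the stromal miR-214-3p and the neuronal miR-124-3p, named after their values were seen, passed the No Probe limit on both. The summed BLANK-subtracted signal of those 21 was 222 in HuH-7-M exosomes, against 309 in HuH-7-P exosomes. The muscle marker miR-206, at 76 in HuH-7-M exosomes, against 168 in HuH-7-P exosomes, made up this gap, and the other 20 summed to 205 in HuH-7-M exosomes, against 201 in HuH-7-P exosomes. By cell type, 3 of 5 leukocyte markers (miR-223-3p, miR-150-5p and miR-155-5p, but neither miR-142 arm), 2 of 3 erythroid markers (miR-451a and miR-486-5p, but not miR-144-3p), 3 of 4 muscle, 2 of 5 stromal and 1 of 2 neuronal markers were above the BLANK limit on both arrays, while both endothelial markers (miR-126-3p and miR-126-5p) were below it on both. Their part in the values of the hepatocyte miRNAs was not tested.

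**Figure D1:**
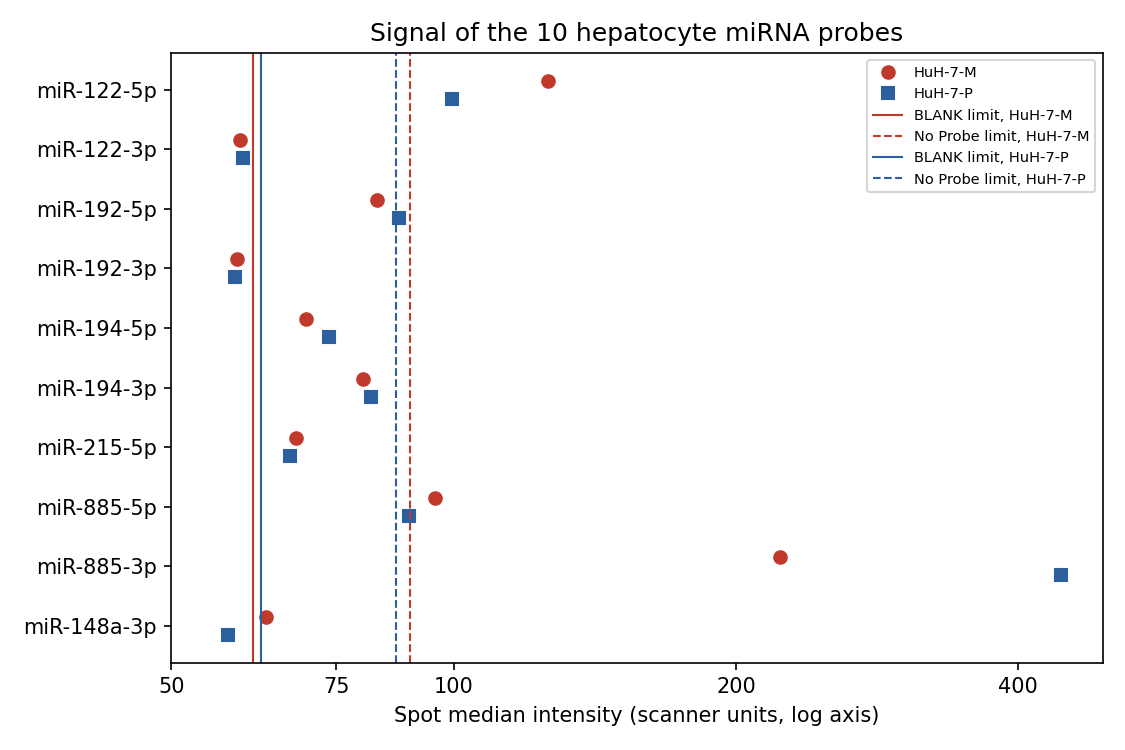
Spot median intensity (log axis) of the 10 probes, 1 spot per array, with circles for HuH-7-M and squares for HuH-7-P; solid lines are the BLANK limits and dashed lines the No Probe limits. miR-885-3p, at 223 for HuH-7-M and 444 for HuH-7-P, and miR-122-5p, at 126 for HuH-7-M and 99.7 for HuH-7-P, stand clear of the dashed lines.

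Among the members, the widest difference between the cultures was in miR-885-3p, the passenger arm of the liver-enriched miR-885 hairpin. The hsa-miR-885-3p probe read 223 in HuH-7-M exosomes, against 444 in HuH-7-P exosomes, or 164 in HuH-7-M and 384 in HuH-7-P once the BLANK mean was subtracted. The HuH-7-M value was lower by a log2 difference of -1.20 [-1.23 to -1.17], so that the HuH-7-P signal was 2.29-fold that of HuH-7-M. It was the only member past 2-fold in either direction, but with the No Probe mean in place of the BLANK mean its difference was -0.82, within 2-fold. The scale of each array was recomputed in that setting, and the median of all measured probes was 0.50 there, in place of 0.04. Among all 1593 measured probes 4.21% were lower by 2-fold or more and 3.95% were higher by 2-fold or more, and 51 of them had a lower difference than miR-885-3p. A count of 1 among the 7 measured members is too small to be read against this background.

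The spread between spots of 1 array was smaller than the miR-885-3p difference. Control probes of similar brightness, S-Probe21, S-Probe24 and S-Probe27 with 8 spots each, had coefficients of variation from 4.56% to 19.4% on the HuH-7-M array and from 5.36% to 9.96% on the HuH-7-P array. Between the arrays control probes moved further, and S-Probe27 averaged 853 ± 48.1 on the HuH-7-M array and 451 ± 44.9 on the HuH-7-P array (SD over 8 spots), a log2 difference of 1.06 that is close in size to that of miR-885-3p and opposite in sign. Of 15 control probes above the BLANK limit on both arrays, 14 were higher on HuH-7-M, 4 of them by at least 2-fold, and none was 2-fold lower. The 124 other probes within 0.5 log2 units of its brightness had a median difference of 0.05 (quartiles -0.19 and 0.37), and 8 of them (6.45%) were lower by 2-fold or more. The 50 other measured probes of its block on the array had a median of -0.01.

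The guide arm of the same hairpin, miR-885-5p, went the other way by a small amount. The hsa-miR-885-5p probe read 95.6 in HuH-7-M exosomes, against 89.6 in HuH-7-P exosomes, a log2 difference of 0.34 [0.12 to 0.56], and passed the No Probe limit on each array. This sign turned after scaling to the Spike Control probes (-0.28), which leaves the contrast between the arms as it is. With the No Probe mean subtracted the value was 1.05, past 2-fold. In that setting the median of all 952 measured probes was 0.50, and 197 of them were at least 2-fold higher. The hairpin, at chr3:10394489-10394562 on the minus strand, is shown with its 5p arm and its 3p arm in capitals. It is given because the reported differences of its arms, from 1 spot each per array, had opposite signs.
MIR885 hairpin: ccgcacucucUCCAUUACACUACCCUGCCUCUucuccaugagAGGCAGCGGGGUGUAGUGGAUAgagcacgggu

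The 5p difference minus the 3p difference was 1.54 for miR-885 [1.29 to 1.79]. Both arms come from 1 precursor, and a scaling factor common to all probes of an array cancels in this contrast. A change in the background subtracted does not cancel, nor do shifts that differ between probes. Over the 397 hairpin names with both arms above the limit on both arrays, the median contrast was 0.01 (quartiles -0.33 and 0.37), and 12.6% had a contrast of size 1 or more. Brightness of different probes also depends on the probe, so the higher signal of miR-885-3p than of miR-885-5p does not give the amounts of the arms.

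miR-122-5p, the guide arm and hallmark of hepatocytes, was brighter in HuH-7-M exosomes. The hsa-miR-122-5p probe read 126 in HuH-7-M exosomes, against 99.7 in HuH-7-P exosomes, or 67.8 in HuH-7-M and 40 in HuH-7-P after the BLANK mean was subtracted, a log2 difference of 0.79 [0.65 to 0.94], within 2-fold. With the No Probe mean subtracted in place of the BLANK mean it was 1.70, past 2-fold, where the median of all measured probes was 0.50. The 234 probes of similar brightness had a median of 0.03 with quartiles of -0.15 and 0.24, and 121 of all measured probes had a higher difference. Scaling to the Spike Control probes, which were brighter on HuH-7-M, brought the value to 0.17 and the median of all measured probes to -0.58. Its passenger arm miR-122-3p read 59.2 in HuH-7-M exosomes, against 59.7 in HuH-7-P exosomes, below the BLANK limit on both. The hairpin, at chr18:58451074-58451158 on the plus strand with both arms in capitals, shows where the bright and the undetected arm lie.
MIR122 hairpin: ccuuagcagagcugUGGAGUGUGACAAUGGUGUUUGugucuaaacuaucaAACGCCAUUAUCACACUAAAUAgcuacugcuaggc

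On the opposite strand of the same locus RefSeq places MIR3591, which was added after its values were seen. miR-3591-3p, at chr18:58451087-58451108 on the minus strand, is complementary to miR-122-5p over 21 bases.
hsa-miR-3591-3p: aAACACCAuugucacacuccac

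Its probe read 79.8 in HuH-7-M exosomes, against 87.5 in HuH-7-P exosomes, a log2 difference of -0.36 [-0.67 to -0.06], opposite in sign to that of miR-122-5p. The other arm, miR-3591-5p, read 55.7 in HuH-7-M exosomes, against 57.9 in HuH-7-P exosomes, and was below the limit on both.

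**Figure D2:**
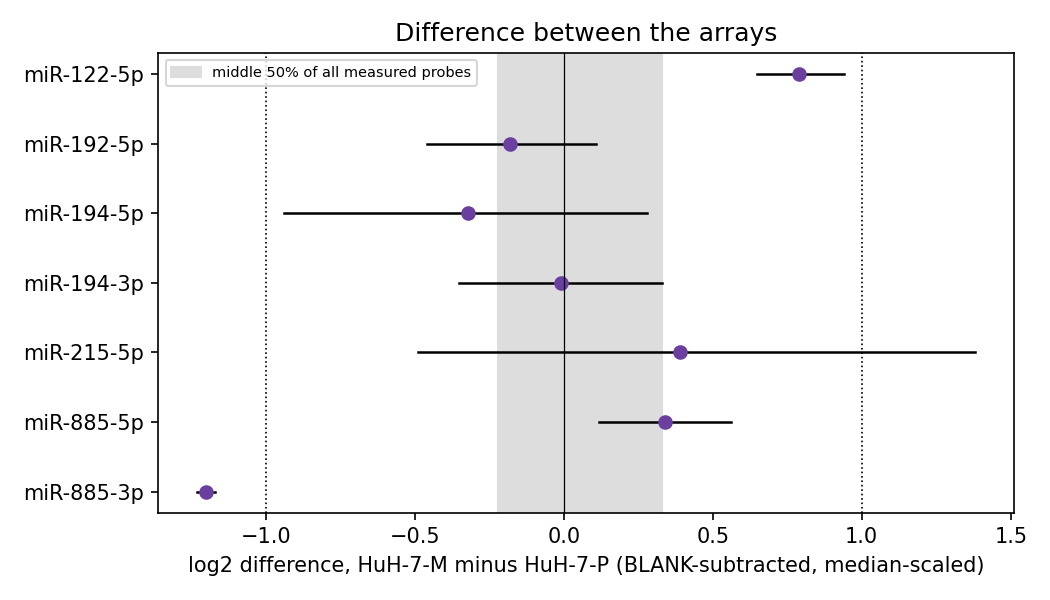
Log2 ratio of HuH-7-M to HuH-7-P of the 7 members above the BLANK limit on both arrays; points are values of 1 array per group, lines the range when both spots move by 2 SD of the BLANK spots, dotted lines 2-fold, and the grey band the quartiles of all measured probes (-0.22 and 0.33). miR-885-3p lies past the lower dotted line and miR-122-5p between the band and the upper one, while the lines of miR-194-5p and miR-215-5p are wide because these probes were dim.

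The guide arms of miR-192, miR-194 and miR-215, which come from paired hairpins, did not stand apart between the cultures beyond spot noise. hsa-miR-192-5p read 82.8 in HuH-7-M exosomes, against 87.5 in HuH-7-P exosomes, with a log2 difference of -0.18 [-0.46 to 0.11]. hsa-miR-194-5p read 69.6 in HuH-7-M exosomes, against 73.6 in HuH-7-P exosomes, with -0.32 [-0.94 to 0.28]. miR-215-5p, the near copy of miR-192-5p, read 68 in HuH-7-M exosomes, against 67 in HuH-7-P exosomes, with 0.39 [-0.49 to 1.38]. All these ranges include 0, so no difference was detectable in these guide arms, although that of miR-215-5p reaches past 2-fold. The miR-215-5p signal was below all 3 Negative Control means on each array. Other settings moved these values, with miR-215-5p at -0.23 after scaling to the Spike Control probes and miR-192-5p at -1.67 with the No Probe mean subtracted. The HuH-7-M signal of miR-192-5p, 82.8, lay within the SD (5.73) of that mean (81.1).

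The passenger arms of the family split. miR-194-3p, which only MIR194-2 on chromosome 11 encodes in RefSeq, read 80 in HuH-7-M exosomes, against 81.7 in HuH-7-P exosomes, with a log2 difference of -0.01 [-0.35 to 0.33]. The miR-194 contrast of 5p minus 3p was -0.31 [-1.26 to 0.63], a range that includes 0. miR-192-3p read 58.8 in HuH-7-M exosomes, against 58.5 in HuH-7-P exosomes, and was below the BLANK limit on both arrays. miR-215-3p, from the hairpin of miR-215-5p, was also below it, at 53.6 in HuH-7-M exosomes, against 59.7 in HuH-7-P exosomes.

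miR-148a-3p was above the BLANK limit on HuH-7-M only. The hsa-miR-148a-3p probe read 63.1 in HuH-7-M exosomes, against 57.5 in HuH-7-P exosomes. After scaling its HuH-7-M signal was 1.71-fold that of the dimmest HuH-7-P probe above the limit, a figure that makes no allowance for spot noise. The HuH-7-M spot was dimmer than the brightest of the 320 BLANK spots there, at 64.2, so its detection rests on the limit used. Its passenger arm miR-148a-5p read 54.8 in HuH-7-M exosomes, against 59.4 in HuH-7-P exosomes, below the limit on both. miR-148b-3p and miR-152-3p, the array's other miRNAs with the seed of miR-148a-3p, were below it on both arrays as well, at 55.7 to 57.3 in HuH-7-M exosomes and 57.2 to 59.8 in HuH-7-P exosomes.

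Set by arm, 5 of 6 guide probes were above the limit on both arrays and the sixth on HuH-7-M only, against 2 of 4 passenger probes. Among all 810 hairpin names with a probe for each arm, both arms were above the limit on both arrays in 49%, only the 5p arm in 15.1%, only the 3p arm in 13.1% and neither in 22.8%. The pattern of miR-885 and miR-194, with both arms above the BLANK limit, was thus the common one on these arrays. Every No Probe spot passed that limit too. Both miR-885 arms also passed the No Probe limit on each array, while neither miR-194 arm passed it on either. The summed BLANK-subtracted signal of the 6 guide probes was 153 in HuH-7-M exosomes, against 119 in HuH-7-P exosomes, and that of the 4 passenger probes 186 in HuH-7-M exosomes, against 406 in HuH-7-P exosomes, of which miR-885-3p held 164 in HuH-7-M and 384 in HuH-7-P. The median difference of the 7 measured members was -0.01, beside 0.04 over all measured probes.

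**Figure D3:**
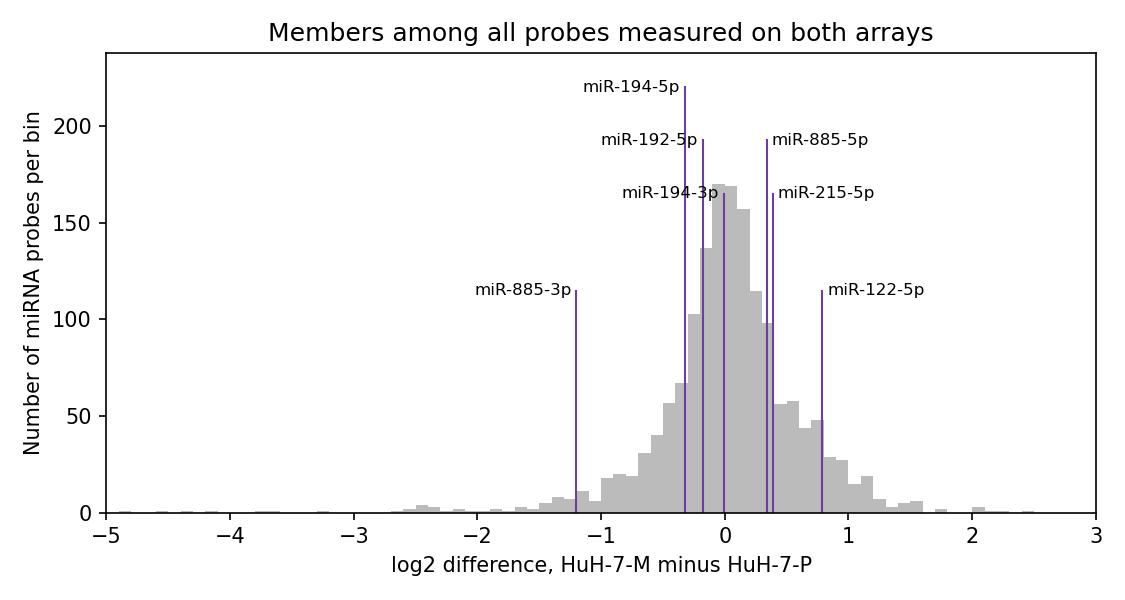
Number of miRNA probes in bins of the log2 ratio of HuH-7-M to HuH-7-P over the 1593 probes above the BLANK limit on both arrays, with the 7 members marked by vertical lines whose height carries no value. Of the 7, 5 lie within the bulk, miR-122-5p lies on its upper flank at 0.79 and miR-885-3p lies in the lower tail at -1.20.

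Base composition went with detection on both arrays. Of 2253 array miRNAs found by name in RefSeq, those with under 40% G and C were above the BLANK limit on both arrays in 5.01% of cases, those from 40% to under 50% in 44.1%, those from 50% to under 60% in 78.3%, and those with 60% or more in 95.2%. The undetected miR-122-3p, with 31.8% G and C, lay in the lowest bin, and the passenger arms miR-885-3p and miR-194-3p, with 59.1% each, in the third. miR-215-5p was above the limit at 38.1% and miR-192-3p below it at 50%, against the trend. miR-885-3p and miR-194-3p were also the only members with a run of GGGG, searched on the mature strand alone. That run was present in 269 of the 2253 miRNAs, of which 95.9% were above the limit on both arrays, against 57.7% of those without it. The measured miRNAs with the run had a median difference of 0.07, and 3.1% of them were lower by 2-fold or more, against a median of 0.03 and a share of 4.98% for those without it. The part of base composition in the levels of the members was not tested.

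**Figure D4:**
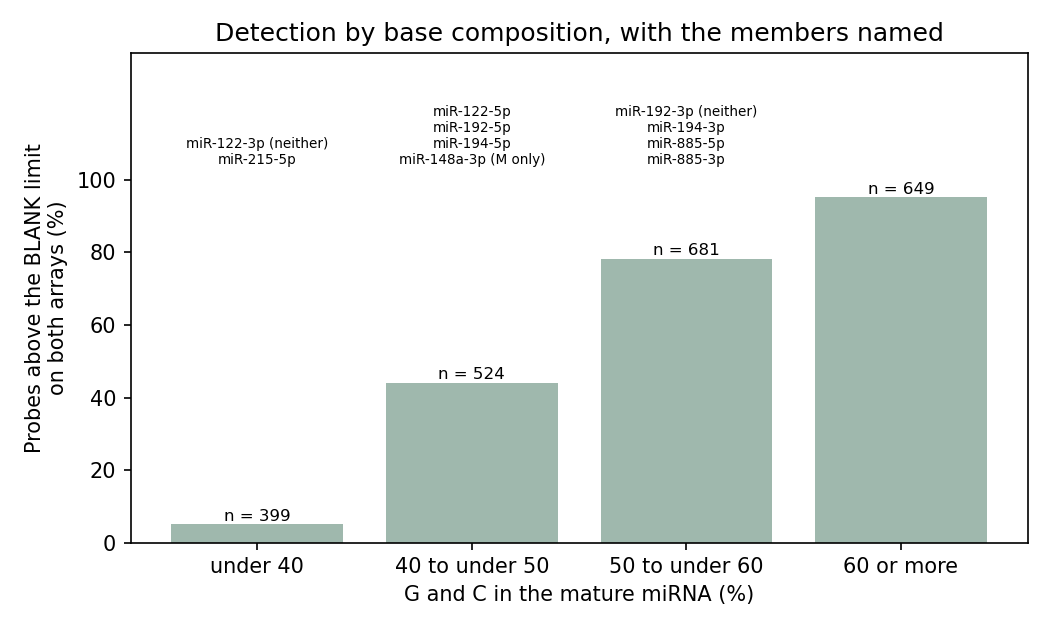
Share of array miRNAs above the BLANK limit on both arrays (bars, in percent, starting at 0) by the share of G and C in the mature sequence, with the number of miRNAs per bin and the members of each bin named above it; "neither" and "M only" mark members not above the limit on both arrays. The share climbs from 5.01% to 95.2%, and no member lies in the last bin.

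Other liver miRNAs, on a list of 16, gave 8 measured on both arrays (50%, beside 62.1% of all miRNA probes), 3 on HuH-7-M only (18.8%, beside 3.04%) and 5 on neither (31.2%, beside 31.9%). The list was chosen with earlier results of these data known, so its shares cannot be read against those of all probes. The 3 on HuH-7-M only, named after their values were seen, included miR-27b-3p, at 255 in HuH-7-M exosomes, against 60.7 in HuH-7-P exosomes. The others were the dimmer miR-455-3p (66.7 for HuH-7-M, 61.8 for HuH-7-P) and miR-29a-3p (62.2 for HuH-7-M, 58.6 for HuH-7-P). miR-455-3p lay just under the HuH-7-P limit of 62.3, and miR-29a-3p just over the HuH-7-M limit of 61.2. Of the 8, 1 was higher by 2-fold or more and 2 were lower by as much, counts too small to be read against the 3.95% and 4.21% of all measured probes, with a median of 0.23 beside 0.04 over all measured probes. miR-483-3p, from an intron of IGF2, read 131 in HuH-7-M exosomes, against 87.4 in HuH-7-P exosomes (1.43 [1.25 to 1.62]). miR-34a-5p, which p53 induces, had a signal of 76.3 in HuH-7-M exosomes, against 99.8 in HuH-7-P exosomes (-1.16 [-1.47 to -0.87]). miR-26a-5p read 61.5 in HuH-7-M exosomes, against 67.6 in HuH-7-P exosomes (-1.46 [-4.87 to 0.03]), a range that reaches 0. miR-802, another liver miRNA, was below the limit on both arrays at 59 in HuH-7-M exosomes, against 56.3 in HuH-7-P exosomes, as was miR-101-3p at 53.1 in HuH-7-M exosomes, against 55.4 in HuH-7-P exosomes.

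The deposited table of the authors' values held a row for each of the 7 measured members. Rows were matched to the scanner output by value on both arrays. Their differences therefore equal those above by construction and are no separate check. The matched rows gave miR-885-3p 138 in HuH-7-M exosomes, against 316 in HuH-7-P exosomes, and miR-122-5p 56.9 in HuH-7-M exosomes, against 32.8 in HuH-7-P exosomes. All 7 rows carried the scanner's name. The scanner output holds a further intensity column, headed as background median, that followed the spot signal (Pearson r of the log2 values 0.992 on each array, across miRNA probes). In it miR-885-3p read 168 in HuH-7-M exosomes, against 522 in HuH-7-P exosomes, and miR-122-5p 137 in HuH-7-M exosomes, against 112 in HuH-7-P exosomes, so both kept their sign there. As this column followed the signal of the same spots so closely, it is no separate check either.

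**Figure D5:**
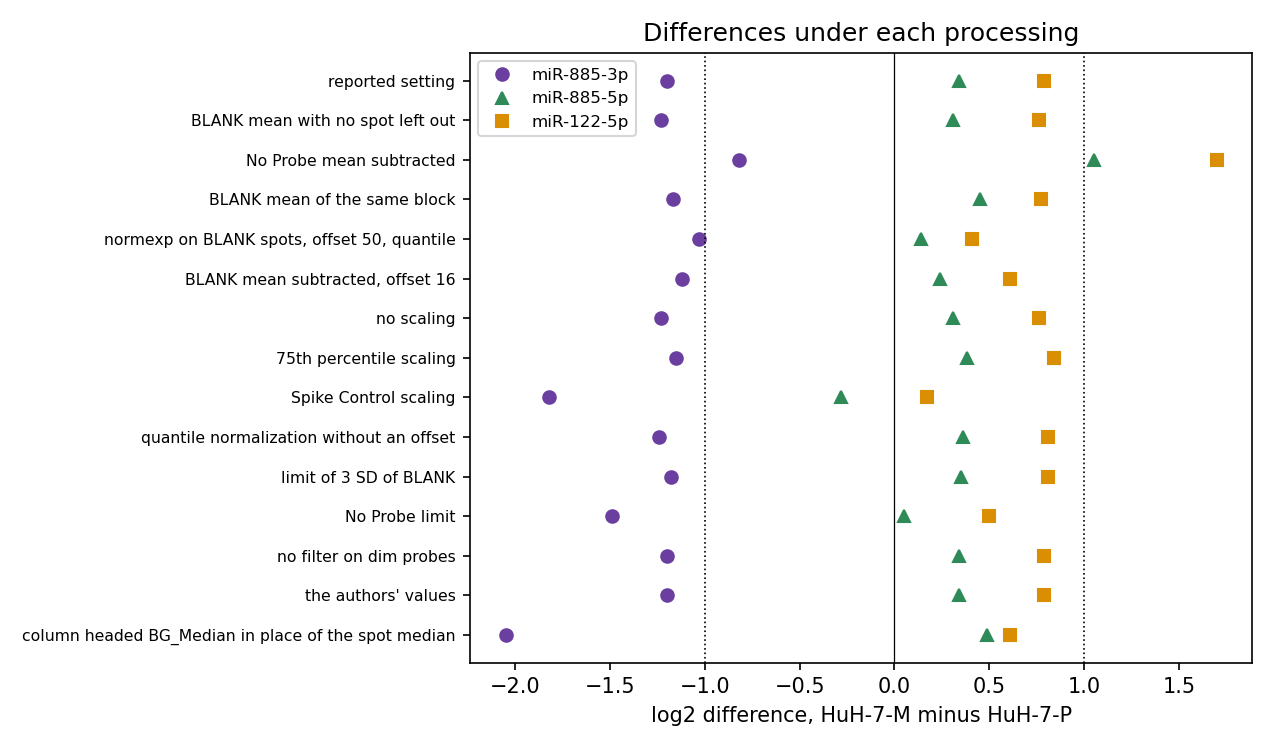
Log2 ratio of HuH-7-M to HuH-7-P of miR-885-3p (circles), miR-885-5p (triangles) and miR-122-5p (squares) under the reported setting in the top row and each alternative below it; dotted lines are 2-fold. miR-885-3p ran from -2.05 to -0.82 and miR-122-5p from 0.17 to 1.70, and neither crossed 0, while miR-885-5p did so under Spike Control scaling, at -0.28.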

How the data were processed

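RNA of exosome preparations was labelled with Cy5 with the 3D-Gene kit and hybridised to a 1-colour array, per the labels' protocols. The deposited scanner files give, per the file headers, the spot median intensity of 3200 spots, with no background subtracted and 1 spot per miRNA probe. A further deposited file holds the authors' processed intensity per miRNA, which matched the scanner values after background subtraction and scaling; values were assigned by that match, not by row name, and the sources used here name no software for it. On HuH-7-M 2 spots carried a bad-spot entry, none of them a member.

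The mean of the 320 BLANK spots, with 5% left out at each end, was subtracted, and each array was divided by the median over its probes above the BLANK mean plus 2 SD (29.8 for HuH-7-M and 30.5 for HuH-7-P) before log2. A 2-fold difference was the threshold of size. Of the alternatives, normexp used limma 3.58.1 in R 4.3.3 with an offset of 50; the rest used Python 3.11.15. Calculations were tested on simulated data. The naming rule took the 10 members, those sharing a hairpin or seed, the list of other liver miRNAs and, from other lists, those past 2-fold and the 3 with the widest difference; further cell type markers, and the opposite-strand miR-3591 arms, were named after their values were seen. The members and lists were chosen with earlier results of these data known. No paired analysis or test was possible with 1 array per group, and the number of arrays limits the precision.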

Additional observations from a re-analysis of the deposited data

How the results depend on the processing

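The differences were recomputed under 13 alternatives fixed at the start and 1 chosen after seeing the data (the column headed BG_Median in place of the spot median). All 14 gave a value for miR-122-5p and both miR-885 arms, 13 for miR-192-5p, 12 for each miR-194 arm and 11 for miR-215-5p. No paired analysis was possible because each group has 1 array. miR-885-3p stayed below 0 in all 14 and at least 2-fold lower in 13, but not all of these could move it. Dropping the filter and using the authors' values, which were matched by value, left each member's difference unchanged by construction. No scaling, 75th percentile scaling and the limit of 3 SD changed only the scale of each array (-1.23, -1.15 and -1.18 for miR-885-3p). With the No Probe mean subtracted miR-885-3p was at -0.82, and miR-192-5p, at -1.67, took its place as the only member 2-fold lower. That value rests on a HuH-7-M spot of 82.8, which lay within the SD (5.73) of the No Probe mean (81.1) and below the No Probe limit. With the No Probe mean subtracted 2 members were at least 2-fold higher (miR-122-5p at 1.70 and miR-885-5p at 1.05), beside 197 of all 952 measured probes. The No Probe limit left 3 members on HuH-7-M, 4 on HuH-7-P and 3 on both, against 790 of all 2565 miRNA probes on both. The miR-885 arm contrast was 1.18 after normexp with an offset of 50 and quantile normalization, and it was 2.54 in the BG_Median column. The count of all probes at least 2-fold higher and lower was 63 and 67 of 1593 measured as reported. Of these calls, 48.5% were higher, and percentages below are likewise shares of the calls. After normexp with an offset of 50 and quantile normalization it was 7 and 28 of 1593 (20% higher). It was 30 and 36 of 1593 with an offset of 16, and 197 and 64 of 952 (75.5%) with the No Probe mean subtracted. Spike Control scaling gave 8 and 260 of 1593 (2.99%), and the No Probe limit 11 and 38 of 790 (22.4%). The count was 118 and 137 of 1774 without a filter, and 129 and 157 of 1457 in the BG_Median column. As the number of measured probes differs, these counts are not on 1 scale. Relative to the medians of all probes under these settings, 0.50 with the No Probe mean subtracted, -0.58 after Spike Control scaling and -0.19 under the No Probe limit, miR-885-3p was lower and miR-122-5p higher. After Spike Control scaling miR-215-5p and miR-885-5p changed sign (-0.23 and -0.28), which they did under no other alternative that gave them a value (11 and 14 in all). This scaling changes only the factor of each array, so it moved all probes by the same amount, their median from 0.04 to -0.58. Why the Spike Control probes were brighter on HuH-7-M was not tested. miR-194-3p lay on both sides of 0 (-0.63 to 0.23). Signals close to the BLANK mean set the limit of what could be seen, as for miR-215-5p, whose BLANK-subtracted signal was 9.29 in HuH-7-M exosomes and 7.25 in HuH-7-P exosomes.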
